A study of Mus musculus with 8 samples.

Results

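The genes described are Myc, its partner Max and 38 genes of ribosome biogenesis, 40 in all among the 23337 gene symbols measured. They were chosen by symbol, and each of the 40 was found under its own symbol in every library. The RNA came from MOE cells, an epithelial line of the FVB mouse oviduct, the mouse counterpart of the fallopian tube. The cells were taken with trypsin at confluence and plated on 3D collagen gels (4 libraries) or on 2D collagen (4 libraries). All 8 libraries came from cells kept for 6 h in MOE medium lacking EGF, so both substrates share the cell line, the passage by trypsin, the time and the absence of that growth factor. A single cell line was used, and the labels do not say whether replicates were separate cultures. The p-values therefore rest on a spread that may be technical only. By its title, the study concerns the spread of cancer from the fallopian tube to the ovary.

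Myc is a transcription factor that binds DNA as a pair with Max, at a short sequence called the E-box. Among the genes it is best known to control are those that build ribosomes, and its own mRNA is short-lived and follows growth factor and adhesion signals. Ribosomes are made in the nucleolus, where RNA polymerase I copies the ribosomal RNA genes into a long precursor. Small nucleolar ribonucleoproteins (snoRNPs) of the box C/D and box H/ACA kinds then modify the precursor, and many assembly factors fold, cut and package it into the small and the large ribosomal subunit.

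Depth was 17575457 to 21235436 reads in the 3D libraries and 15692699 to 25862036 in the 2D libraries. Values are read counts divided by a size factor per library and are called normalized counts. The lowest value of any member in a library was 84.8 normalized counts, for Dkc1 in 2D replicate 2. The keratins Krt8, Krt18, Krt19 and Krt7 and the secretory regulator Pax8 were abundant in every library, while the epithelial markers Epcam and Cldn3 reached at most 29.9 and 7.17 normalized counts. Among immune markers, Ptprc, Lyz2 and Cd3e stayed at or under 4.902 normalized counts, while Cd68 reached 314 to 559.6 in 3D and 135 to 373 in 2D libraries, and Csf1r 127 to 222 in 3D and 252 to 433 in 2D libraries. Of 7 fibroblast markers Lum stayed at or under 1.13 normalized counts, while Dcn reached 13.7 to 274 in 3D and 3.68 to 299 in 2D libraries. Some markers differed between the substrates. Krt8 was lower on 3D collagen (log2 fold change −0.76, limma adjusted p = 0.0397). Foxj1, a regulator of ciliated cells, differed by −1.70 on the log2 scale (limma adjusted p = 0.0706). The ciliated markers Dnahc5, Dnaic1, Tekt1 and Ccdc39 reached at most 19.5, 2.92, 3.89 and 4.87 normalized counts in any library. Pdgfra, a stromal receptor, was higher at 14.9 to 19.3 normalized counts in 3D and 2.37 to 7.35 in 2D libraries (limma adjusted p = 0.0340). Of 3 fibroblast markers tested, 1 had a log2 fold change below 0, the median was 0.94, and only Pdgfra was called. Col1a1 and Pdgfrb did not share the rise of Pdgfra. Col1a1 had 34.8 to 59.4 normalized counts in 3D and 36.8 to 96.8 in 2D libraries. Pdgfrb had 0.933 to 5.24 in 3D and 0.974 to 12.7 in 2D libraries. The summed fibroblast list spanned 4.18 to 17.3 CPM in 3D and 3.12 to 19.4 CPM in 2D libraries. A few libraries stood apart from the others of their group. 2D replicate 2 lay at −102 on the first principal component of all genes (48.3% of the variance), against −14.2 to 58.0 for the other libraries, and its deviations from the 2D mean were higher for transcripts of higher GC content (Pearson r = 0.64 over 11702 genes, not independent). The libraries numbered 4 of both substrates deviated from their groups alike (r = 0.81 across genes), and they held more mRNA of most genes described here. Liver transcripts summed to 0.434 to 27.9 CPM in 3D and 2.43 to 25.0 CPM in 2D libraries. The highest sums were in 3D replicate 1 and 2D replicate 2, and the next highest were 6.22 CPM in 3D and 7.97 CPM in 2D libraries. The part of these markers in the results was not tested.

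Cells on 3D collagen held less Myc mRNA, with a mean 0.464 times that on 2D collagen, and less mRNA of 4 ribosome biogenesis genes with different roles. These were Bysl and Rrp12 of small subunit assembly, Rrp1b of large subunit assembly and Polr1b of RNA polymerase I. No member was called higher. All 40 members passed the filter on low values, and limma on log2(normalized count + 1), adjusted by Benjamini-Hochberg over 11820 genes at a threshold of 0.05, called 5 of them lower (12.5%), where 3.39% of all genes tested were lower. It called 0 higher, where 2.33% of all genes were, edgeR also called 0 higher (2.72% of all genes), and DESeq2 called 1, Npm1 (5.99% of all genes). Members called lower numbered 4 in edgeR, where 376 of the 11820 genes were lower, and 10 in DESeq2, where 871 were. At an unadjusted limma p under 0.05, 13 of 40 members were lower and 1 of 40 higher. Of the 11820 genes, 1485 (12.6%) were lower and 1380 (11.7%) higher at that threshold. The log2 fold change, 3D over 2D, was below 0 for 28 of 40 members (70.0%) and for 48.5% of all genes tested, and its median was −0.16 for the members and 0.02 for all genes. In 11 members (27.5%) every 3D library lay below every 2D library, as it did in 10.4% of all genes, and in 0 members was every 3D library above every 2D library, as it was in 8.05% of all genes. Scaling by library size alone shifted the median of all genes by 0.17, and the members' median was then 0.01, with 2 members called lower where 2.69% of all genes were. Over all genes that scaling called 318 lower and 498 higher, against 401 and 275 in the scaling used here. The number of members called lower depended on single libraries. It was 0 without 3D replicate 1 (1.13% of all genes lower) and without 3D replicate 3 (0.88%), 1 without 3D replicate 2 (1.21%), 3 without 3D replicate 4 (2.02%), 3 without 2D replicate 3 (1.8%) and 2 without 2D replicate 4 (2.65%). The members' median was 0.08 without 2D replicate 4.

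**Figure D1:**
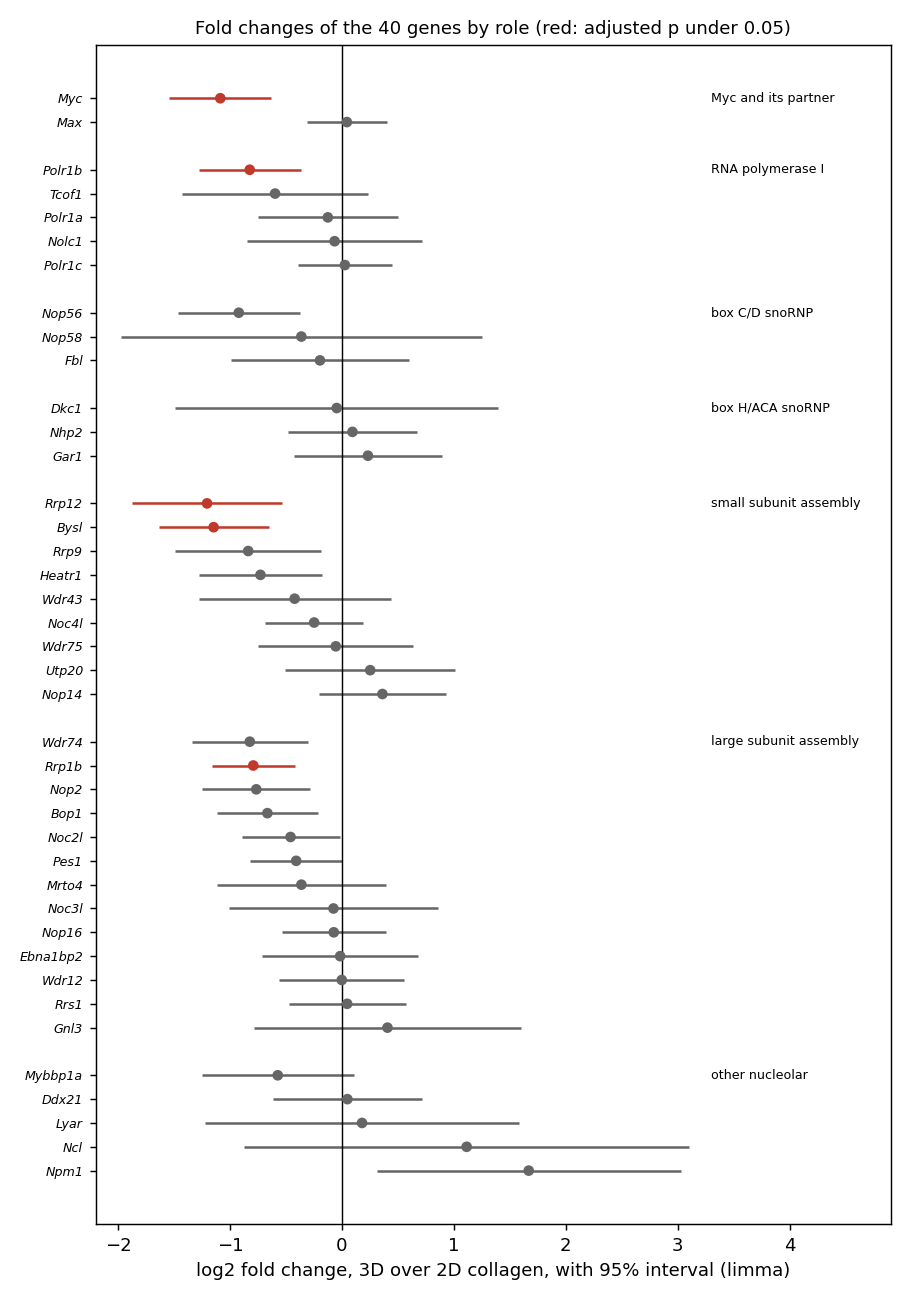
Log2 fold change, 3D over 2D collagen, of each of the 40 genes (x axis) with its 95% limma interval, in blocks by role (y axis). Red marks the 5 genes with an adjusted p under 0.05, all left of 0, and the intervals of 26 genes span 0.

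Myc had 352, 448, 339.6 and 346 normalized counts in 3D replicates 1 to 4, against 580.3, 938, 724 and 961 in 2D replicates 1 to 4. The groups did not overlap, and the 2D libraries varied more than the 3D libraries. Myc (chromosome 15, 61985391 to 61990374, plus strand, mm10) averaged 371 ± 51.3 in 3D and 801 ± 181 in 2D libraries (mean ± SD, n = 4 each). The log2 fold change, −1.09 (SE 0.20, 95% interval −1.54 to −0.63), had a limma adjusted p of 0.0192. The call was lost without 3D replicate 1 (limma adjusted p = 0.0622), without 3D replicate 3 (0.0768) and with both libraries numbered 4 left out (0.0624), and the adjusted p over 24 alternatives ran from 4.58e-05 in DESeq2 to 0.0768 in limma. The fold change stayed between −1.23 and −0.78 throughout.

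Max, the partner that Myc needs to bind DNA, was not called. It had 2120.0, 1785, 1695 and 1376 normalized counts in 3D replicates 1 to 4, against 1691, 1457, 1811 and 1750.2 in 2D replicates 1 to 4. The groups overlapped, and the interval of the log2 fold change, −0.32 to 0.41, leaves out a change as large as that of Myc. Per kb of coding sequence Max averaged 3634 normalized counts in 3D and 3495 in 2D libraries, and Myc 273 in 3D and 588 in 2D libraries.

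**Figure D2:**
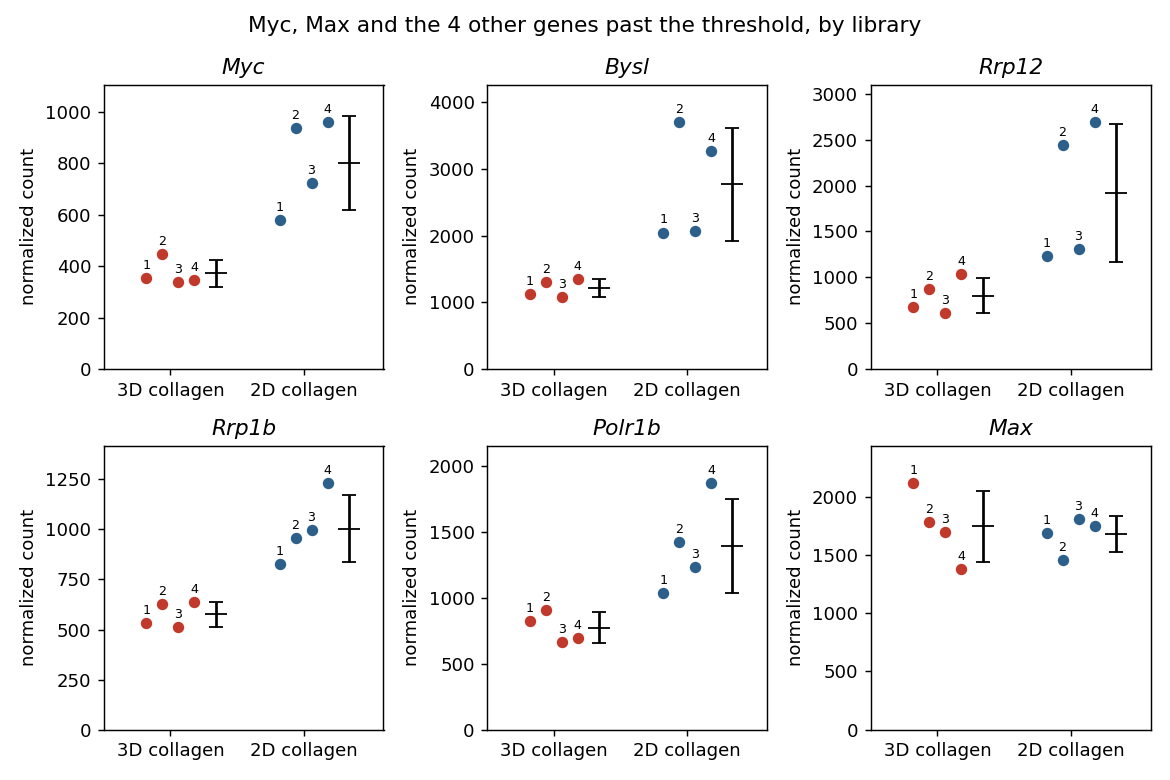
Normalized counts (y axis, from 0) of Myc, Max and the 4 other genes past the threshold in each library of 3D and 2D collagen (x axis), numbered by replicate, with the mean and SD of each group in black. For Myc, Bysl, Rrp12, Rrp1b and Polr1b every 3D library lies below every 2D library, and for Max the groups overlap.

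The 250 bases before the annotated starts of 33 of the members were in the promoter table of RefSeq (build GRCm38.p6), and they are shown because the E-box is the site that Myc and Max bind. The 5 genes shown are 3 that were called, Nop56, the uncalled member with the lowest adjusted p, and Nop2, chosen after its E-box was seen. Wdr74, with a lower adjusted p than Nop2, holds no E-box and is not shown. The table holds none for Myc or Rrp12. The E-box CACGTG, which reads the same on both strands, was found before 1 of these 33 members, Nop2, 60 bases before its start, and before 10.01% of the 8488 tested genes in the table. A near variant, CACGCG on either strand, was found before 5 of the 33 members (15.2%) and before 17.1% of tested genes. Bysl was among these 5 members, with the variant outside the part of its window printed below. The windows printed are cut to the part outside annotated exons, with the E-box in capitals, and those of Bysl, Polr1b, Rrp1b and Nop56 hold none. They lie at chr17:47611493-47611581 on the minus strand for Bysl, whose window runs into the oppositely oriented gene Med20, at chr2:129100746-129100994 on the plus strand for Polr1b, and at chr17:32035912-32036099 on the plus strand for Rrp1b. Those of Nop56 and Nop2 lie at chr2:130274162-130274411 and chr6:125131633-125131882, both on the plus strand.
Bysl: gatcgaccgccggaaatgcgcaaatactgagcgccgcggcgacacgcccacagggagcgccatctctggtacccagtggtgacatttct
Polr1b: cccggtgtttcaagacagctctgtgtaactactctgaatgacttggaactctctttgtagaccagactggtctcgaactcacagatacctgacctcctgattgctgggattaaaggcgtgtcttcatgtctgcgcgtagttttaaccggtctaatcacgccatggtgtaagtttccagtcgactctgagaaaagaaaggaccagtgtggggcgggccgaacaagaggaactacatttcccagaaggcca
Rrp1b: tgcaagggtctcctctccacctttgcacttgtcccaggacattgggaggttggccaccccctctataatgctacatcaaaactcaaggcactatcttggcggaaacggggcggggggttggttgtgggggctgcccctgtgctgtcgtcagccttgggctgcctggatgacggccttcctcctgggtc
Nop56: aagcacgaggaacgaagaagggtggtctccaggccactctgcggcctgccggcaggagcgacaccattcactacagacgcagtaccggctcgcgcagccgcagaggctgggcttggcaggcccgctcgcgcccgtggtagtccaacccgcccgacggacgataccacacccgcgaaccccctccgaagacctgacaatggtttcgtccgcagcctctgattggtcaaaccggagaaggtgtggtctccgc
Nop2: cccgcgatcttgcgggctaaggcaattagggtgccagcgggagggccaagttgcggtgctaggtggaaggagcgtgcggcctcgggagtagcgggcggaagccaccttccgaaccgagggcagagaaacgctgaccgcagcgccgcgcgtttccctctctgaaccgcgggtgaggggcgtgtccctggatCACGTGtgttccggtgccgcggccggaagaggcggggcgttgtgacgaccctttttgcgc

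Of 5 genes of RNA polymerase I transcription, Polr1b fell and the other 4 did not pass the test. Polr1b, the second-largest subunit of the enzyme, had 826, 911, 663 and 693 normalized counts in 3D replicates 1 to 4, against 1037, 1423, 1231 and 1873 in 2D replicates 1 to 4. The groups did not overlap. Its log2 fold change, −0.82 (SE 0.20), had a limma adjusted p of 0.0475, and the call was lost in 15 of 24 alternatives. These include every single library left out except 2D replicate 1, TMM (limma adjusted p = 0.0559), upper-quartile factors (0.0514), library size (0.0851), no filter (0.0601) and edgeR (0.0514). The adjusted p ran from 0.00461 in DESeq2 to 0.156 in limma. Polr1a, the largest subunit, and Polr1c, which RNA polymerase III also uses, had log2 fold changes of −0.13 and 0.03. Polr1c, the most abundant of the 5 per coding length, had 2861, 2465, 2564 and 2101 normalized counts in 3D and 1866, 2891, 2198 and 2978 in 2D replicates 1 to 4, which overlap. Tcof1 (treacle) and Nolc1, nucleolar phosphoproteins that serve the polymerase, had log2 fold changes of −0.60 and −0.07, with replicate 4 highest on both substrates.

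Of 9 factors of small subunit assembly 2 fell, and 7 had a log2 fold change below 0. Bysl (bystin), which acts late on the small subunit precursor, had 1120.0, 1306, 1077 and 1353 normalized counts in 3D replicates 1 to 4, against 2047, 3707, 2063 and 3276 in 2D replicates 1 to 4. The highest 3D library lay well below the lowest 2D library. The log2 fold change, −1.15 (SE 0.22), had a limma adjusted p of 0.0207, and the call was lost when 3D replicate 1, 2 or 3 was left out singly (limma adjusted p = 0.0679, 0.0620 and 0.0813) and without both libraries numbered 4 (0.0561). Over the alternatives the adjusted p ran from 7.80e-05 in DESeq2 to 0.0813 in limma. Exons of Ccnd3 on the opposite strand overlap 9.37% of the exonic bases of Bysl (chromosome 17, 47599331 to 47611492), the strand setting of the counting is not given, and Ccnd3 itself differed by −0.69 on the log2 scale (limma adjusted p = 0.0730).

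Rrp12, needed for the maturation and nuclear export of ribosomal subunits, had the lowest log2 fold change of the 40 genes. It had 670.4, 875, 614 and 1038 normalized counts in 3D replicates 1 to 4, against 1228, 2439, 1313 and 2694 in 2D replicates 1 to 4. The groups did not overlap, and 2D replicates 2 and 4 were far above 2D replicates 1 and 3. Its log2 fold change, −1.21 (SE 0.30), had a limma adjusted p of 0.0483, and the call was lost in 14 of 24 alternatives, among them the GC correction (limma adjusted p = 0.0534) and every single library left out except 2D replicate 1. Its adjusted p ran from 0.00185 in DESeq2 to 0.151 in limma. Rrp9, a protein of the U3 snoRNP that guides the first cuts of the precursor, also had every 3D library below every 2D library, at 452 to 593 normalized counts in 3D and 603 to 1479 in 2D libraries (log2 fold change −0.84, limma adjusted p = 0.122). Heatr1, Wdr43 and Wdr75, of the complex that binds the nascent precursor first, had log2 fold changes of −0.73, −0.42 and −0.06. Noc4l had −0.25, Utp20 0.25 and Nop14 0.36, and none of these passed.

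Of 13 factors of large subunit assembly 1 fell, Rrp1b, a nucleolar protein related to yeast Rrp1, and 11 had a log2 fold change below 0. Rrp1b had 533, 625, 510.3 and 636 normalized counts in 3D replicates 1 to 4, against 829, 957, 997 and 1233 in 2D replicates 1 to 4. The groups did not overlap, and the highest library held 1.25 times as much as the lowest in 3D and 1.49 times in 2D. Its log2 fold change, −0.79 (SE 0.17), had a limma adjusted p of 0.0273, and the call was lost when 3D replicate 1, 2 or 3 or 2D replicate 3 or 4 was left out singly, without both libraries numbered 4 and with library size as the only scaling. Its adjusted p ran from 0.000491 in DESeq2 to 0.107 in limma.

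Wdr74, Nop2, Bop1 and Noc2l also had every 3D library below every 2D library and did not pass. Wdr74, a remodelling cofactor of the large subunit precursor, ranged from 1206 to 1311 normalized counts in 3D and from 1566 to 3199 in 2D libraries. Nop2, a methyltransferase of the large subunit rRNA whose upstream window holds the E-box, ranged from 1806 to 2187 in 3D and from 2481 to 4646 in 2D libraries. Their limma adjusted p was 0.0674 and 0.0688, at log2 fold changes of −0.82 and −0.77.

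Bop1, Pes1 and Wdr12 form a single complex in large subunit assembly. Bop1, the most abundant of the 13 per coding length, had 4565, 4760.0, 4403 and 5274 normalized counts in 3D replicates 1 to 4, against 5984, 9884, 5902 and 9169 in 2D replicates 1 to 4. The groups did not overlap, and limma gave an adjusted p of 0.0836 at a log2 fold change of −0.67. Pes1 had a log2 fold change of −0.41 and Wdr12 one of −0.002 (95% interval −0.56 to 0.56), so the 3 partners of the complex had different fold changes, a difference that was not tested. Noc2l and Noc3l, which pair in the nucleolus, had log2 fold changes of −0.46 and −0.08. Mrto4 had −0.36, Nop16 −0.07, Ebna1bp2 −0.02, Rrs1 0.05 and Gnl3 (nucleostemin) 0.41.

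None of the 6 snoRNP proteins was called. Nop56, a scaffold of the box C/D particles that methylate rRNA, had 822, 876, 764 and 1004 normalized counts in 3D replicates 1 to 4, against 1519, 1443, 1193 and 2725 in 2D replicates 1 to 4. The groups did not overlap, and 2D replicate 4 was the highest library by far. Its log2 fold change, −0.92 (SE 0.24), had a limma adjusted p of 0.0578, and Nop56 was lower after the GC correction (limma adjusted p = 0.0465) and without both libraries numbered 4 (0.0476), with an adjusted p from 0.00650 in DESeq2 to 0.174 in limma over the alternatives. Short gene models within Nop56, Snord57 among them, overlap 8.002% of its exonic bases. Its paralogue Nop58 and the methyltransferase fibrillarin (Fbl) had log2 fold changes of −0.36 and −0.20, the first with a 95% interval of −1.97 to 1.25. Of the box H/ACA proteins, which convert uridine to pseudouridine, the enzyme Dkc1 had a log2 fold change of −0.05 (−1.49 to 1.397) and Gar1 of 0.23. Nhp2, the most abundant of the 40 genes per coding length, had 2899, 2721, 3096 and 4365 normalized counts in 3D and 2239, 3322, 2374 and 4654 in 2D replicates 1 to 4, which overlap.

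Of 5 other nucleolar proteins 4 had a log2 fold change above 0, and limma without a replicate block called none. Nucleophosmin (Npm1), a chaperone of the nucleolus, had 968, 1156, 1614 and 3978 normalized counts in 3D replicates 1 to 4, against 781, 167, 513 and 1044 in 2D replicates 1 to 4. The groups overlapped, since 2D replicate 4 exceeded 3D replicate 1. Its log2 fold change of 1.67 was the highest of the 40 genes (SE 0.60, 95% interval 0.31 to 3.02, limma adjusted p = 0.135), and processed copies of Npm1 elsewhere in the genome make its count uncertain. DESeq2 called it higher (adjusted p = 0.0294), limma with the replicate block did so as well (0.0488), and over the alternatives its adjusted p ranged from 0.00407 to 0.277. Nucleolin (Ncl), which binds nascent rRNA, had 1823, 2847, 3431 and 9498 normalized counts in 3D replicates 1 to 4, against 3790.2, 256, 1600.01 and 4952 in 2D replicates 1 to 4. The highest 2D library held 19.4 times as much as the lowest, the widest range of any member within a group, and the log2 fold change of 1.11 has a 95% interval of −0.87 to 3.10. Mybbp1a, a nucleolar corepressor, had a log2 fold change of −0.57, the helicase Ddx21 of 0.05 and Lyar of 0.18. Exons of Spns2 on the opposite strand overlap 2.26% of the exonic bases of Mybbp1a. Spns2 averaged 7055 normalized counts in 3D and 25837 in 2D libraries (log2 fold change −1.82, limma adjusted p = 0.0041), and its part in the Mybbp1a count was not tested. Of the 35 members that were not called, 18 had an interval that reached a 2-fold change in some direction.

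**Figure D3:**
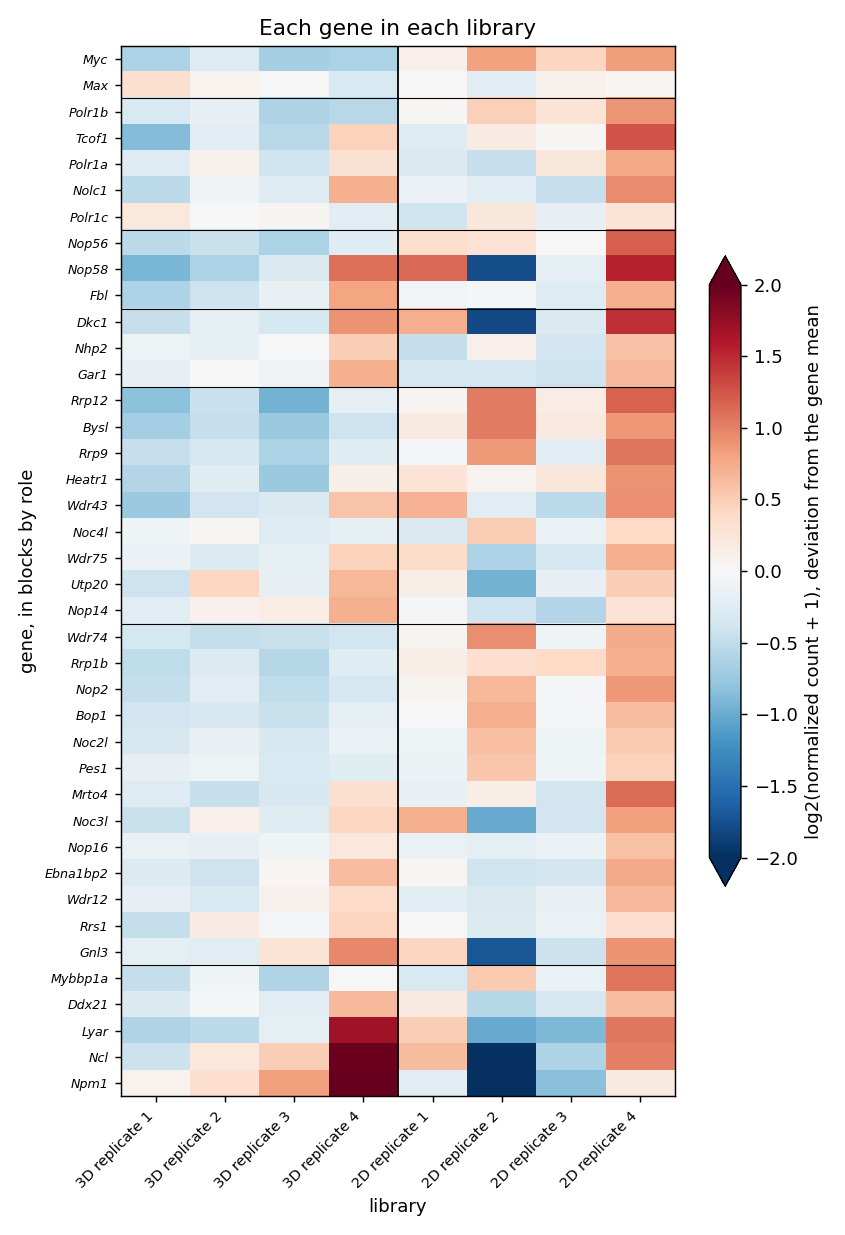
Deviation of log2(normalized count + 1) from each gene's mean over the 8 libraries (colour, saturated beyond 2), with genes in blocks by role (y axis) and the 3D libraries left of the 2D libraries (x axis). The columns of the libraries numbered 4 are mostly red, and 2D replicate 2 is deep blue for Ncl, Npm1, Nop58, Dkc1 and Gnl3.

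Within each substrate the members moved together by library. 3D replicate 4 was the highest 3D library for 32 of 40 members, where it was the highest for 38.5% of all genes tested, and 2D replicate 4 was the highest 2D library for 33 of 40, where it was the highest for 23.5% of all genes. The summed reads of the 40 genes were 2202 to 4081 CPM in 3D libraries and 2445 to 4803 CPM in 2D libraries, in both cases highest in replicate 4. Myc was among 5 members for which 3D replicate 2 was the highest 3D library, with Polr1b, Noc4l, Nop2 and Pes1. For Max, Polr1c and Wdr74 it was 3D replicate 1. What sets the libraries numbered 4 apart was not tested.

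2D replicate 2 was the lowest 2D library for 17 of 40 members and the highest for 6. Members with AT-rich transcripts were low there, and over the 40 genes its deviation from the 2D mean correlated with GC content at r = 0.79 (0.64 over 11702 genes). The log2 fold change also went with GC content, at r = −0.55 over the 40 genes and −0.33 over all genes. These correlations are descriptions over genes of the same libraries. After the GC trend of each library was removed, the correlation over the members was −0.28, and 6 members were lower (Myc, Bysl, Rrp1b, Polr1b, Nop56 and Heatr1) where 5.21% of all genes were. The log2 fold change of Myc was then −0.88, with a limma adjusted p of 0.0172. Without 2D replicate 2, Myc, Bysl and Rrp1b were lower, where 2.96% of all genes were. Without both libraries numbered 4, Nop56 alone was lower, where 2.34% of all genes were, and the log2 fold change of Myc was −0.96.

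**Figure D4:**
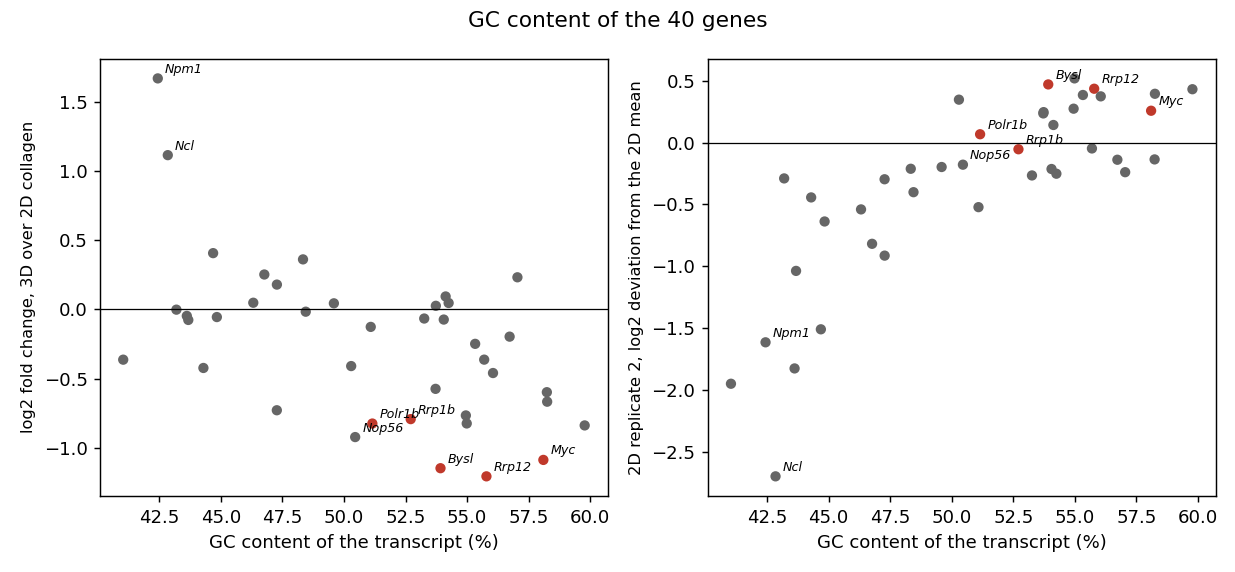
GC content of each gene's transcript in percent (x axes) against its log2 fold change, 3D over 2D collagen (left), and against the deviation of 2D replicate 2 from the 2D mean in log2 units (right). Red marks the 5 called genes, and Npm1 and Ncl lie at the AT-rich end, high on the left and low on the right.

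Other genes of the pathway were read from lists written by knowledge of the pathway. In the Myc network, 2 of 20 tested genes fell and 1 rose, where 3.39% of all genes were lower and 2.33% higher. The list's median log2 fold change was −0.01. Whether these few calls exceed the shares of all genes was not tested. Usp36, a nucleolar deubiquitinase that stabilizes Myc, averaged 529 ± 78.7 normalized counts in 3D and 965 ± 175 in 2D libraries (SD, n = 4 each), with a limma adjusted p of 0.0285. Wdr5, a chromatin cofactor of Myc, averaged 1635 ± 120.3 in 3D and 2683 ± 474 in 2D libraries (limma adjusted p = 0.0321). Mxi1, which pairs with Max and represses Myc targets, rose to 986 ± 197 in 3D libraries, against 471 ± 159 in 2D libraries (log2 fold change 1.10, SE 0.26, limma adjusted p = 0.0401).

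Of the polymerase genes that are not members, Cd3eap, a subunit of RNA polymerase I, fell among 16 tested (log2 fold change −0.63, limma adjusted p = 0.0495). Polr3b, the second-largest subunit of RNA polymerase III, rose among 22 tested (0.80, limma adjusted p = 0.0385), so the same subunit position of polymerases I and III had log2 fold changes of opposite sign. These calls are 6.25% of the polymerase I list, where 3.39% of all genes were lower. For the polymerase III list they are 4.55%, where 2.33% of all genes were higher. Of 46 further small subunit factors, Rrp8 fell (−0.85, limma adjusted p = 0.0179) and Fcf1 rose (0.90, limma adjusted p = 0.0350), and of 44 further large subunit factors Ppan (−1.09, limma adjusted p = 0.0302) and Senp3 (−0.65, limma adjusted p = 0.0385) fell. The shares called lower in the small and the large subunit list, 2.17% and 4.55%, lie near the 3.39% of all genes. The median log2 fold change was −0.06 for the small and −0.11 for the large subunit list.

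Of 30 other Myc-responsive genes only Ctps, a synthase of CTP, was called, at 795 ± 226 normalized counts in 3D and 1645 ± 329 in 2D libraries (SD, n = 4 each, limma adjusted p = 0.0321). That is 3.33% of the list, near the 3.39% of all genes called lower, and the list's median was −0.23. Of 81 cytosolic ribosomal protein genes 70 were tested, and Rpl22l1 rose (log2 fold change 0.88, limma adjusted p = 0.0314). That is 1.43%, where 2.33% of all genes were higher. Limma called 0 lower, with 1 lower and 3 higher at an unadjusted p under 0.05. The log2 fold change was below 0 for 47 of the 70 (67.1%), against 70.0% of the members. Its median was −0.18, against −0.16 for the members. Over these 70 genes edgeR also called 0 lower and 1 higher, and DESeq2 called 0 lower and 2 higher. Processed copies make the counts of ribosomal protein genes uncertain. The libraries numbered 4 were also the highest of their substrate for 58 (3D) and 55 (2D) of these 70 genes, and for 25 (3D) and 24 (2D) of the 30 Myc-responsive genes.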

How the data were processed

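RNA of 4 libraries on 3D and 4 on 2D collagen was sequenced. HTSeq 0.6.1p1, DESeq2 and the build mm10 are named in the submitters' processing notes, while the sources used here do not give the aligner, the annotation or the strand setting. Each deposited file holds a normalized signal for every gene. Dividing by the worth of 1 read gave whole numbers for 100.0% of values (tolerance 0.001), so the authors' values are read counts divided by a size factor, and reads were recovered. The main test was limma 3.58.1 (R 4.3.3, trended and robust prior variance) on log2(normalized count + 1), over genes with at least 10 normalized counts in at least 4 libraries, which understates changes of low genes. On the recovered reads edgeR 4.0.16 called 376 genes lower and 321 higher, and DESeq2 1.42.0 was a further alternative. Gene positions, exons and GC content came from GENCODE M21 (GRCm38, the mm10 build), for the transcript with the longest coding sequence. GC trends were removed by lowess (span 30%). The computations were tested on simulated data. The members, the other lists and the rule for named genes (Myc, Max, called members, the most abundant of each role, the extremes, and up to 4 called genes of each other list) were chosen with earlier results of these data known. Alternatives that leave out both libraries numbered 4, or combine 2D replicate 2 or edgeR with another change, were added after the data were seen. A marker gene, and the summed list that holds it, are not reported here.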

Additional observations from a re-analysis of the deposited data

Results flagged for a closer look

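In each group of 4 libraries the highest and the lowest log2 value of each of the 40 genes was compared with the nearest other, over 80 groups, and a gap above Dixon's 95% critical value for 4 samples was taken up, which chance gives in about 1 in 20 groups. There were 4 such values. Myc had 448 normalized counts in 3D replicate 2, against 339.6 to 352 in the other 3D libraries. In 2D replicate 4, Gar1 had 601 against 286 to 299 in the other 2D libraries, Nop16 had 798 against 471 to 487, and Wdr12 had 744 against 388 to 429.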

How the results depend on the processing

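Counts below are of members lower, then genes lower and genes higher; limma called 5, 401 and 275. Lower members numbered 3 with TMM (368 genes lower), with upper-quartile factors (370 genes) and without a filter (340 genes), 2 with library size (318 genes), 10 with DESeq2, 1 without both libraries numbered 4 (276 genes), and 3 without 2D replicate 2 with the GC correction (504 genes). Leaving out single libraries gave 0 to 5 lower members, 104 to 370 genes lower and 44 to 267 higher. Genes lower and higher numbered 871 and 708 with DESeq2 and 610 and 500 with the GC correction. Without both libraries numbered 4 and 2D replicate 2, 6 members and 557 genes were lower. Genes higher numbered 498 with library size, 171 without both libraries numbered 4, 492 without these and 2D replicate 2, and 424 without 2D replicate 2 with the GC correction. DESeq2 called 1 member higher, Npm1. The cause of these differences was not tested, except that fewer libraries were in the fit where some were left out. The replicate numbers were not taken as pairs, since the deviations of the libraries numbered 1 correlated at −0.17. Those numbered 2, 3 and 4 correlated at 0.37, 0.25 and 0.81, and 3D replicates 2, 3 and 4, but not 3D replicate 1, correlated best with their own number. With the replicate block 12 members were lower and 1 higher, Npm1 (742 and 663 genes), with the replicate block and the GC correction 11 and 1 (1125 and 1038 genes), and in edgeR with the replicate block 8 and 1 (605 and 681 genes). No member called in any of the 24 alternatives had the opposite sign there. Uncalled members changed sign in 86 cases, called members lost the call in 43 and others gained it in 31. The lowest member value was 84.8 normalized counts, and the spread between libraries was widest for Ncl, Nop58 and Dkc1 in 2D libraries.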
